A study of Homo sapiens with 20 samples.

Results

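PCA3, PCGEM1, PCAT1 and PART1 are long noncoding RNAs (lncRNAs) that are known for high or prostate-restricted expression in prostate cancer, and PRUNE2 is the protein-coding gene whose body holds PCA3 on the opposite strand. The 5 genes were taken by name, whatever their values, from the 57773 genes counted in LNCaP cells, an androgen-sensitive line from a prostate cancer metastasis. By mean level, PCAT1 was 5.32-fold lower in the vehicle-treated stable LNCaP lines than in siRNA-control LNCaP cells and PART1 was 2.30-fold lower, whereas PRUNE2 was 1.10-fold lower. PCGEM1 was also lower, on 27 counts in the control cells and 8 in the stable lines (ratio of summed counts 7.60, exact 95% counting interval 3.36 to 19.3). These are differences between separately deposited tables. None of the members tested passed the test when EHMT1 was silenced or induced.

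The study asked how EHMT1, a lysine methyltransferase of histone H3, and the methylation of a pair of its own lysines act on transcription in prostate cancer cells. LNCaP cells were transfected for 2 days with 20 nM pools of siRNA, either a non-targeting pool (siNTC, n = 2) or a pool against EHMT1 (siEHMT1, n = 2). Separately, 4 stable LNCaP lines were made with lentivirus carrying a tetracycline-inducible EHMT1 reading frame, as wild type (WT) or with lysine-to-arginine changes (K450R, K451R, K450RK451R), and each was given vehicle (Veh) or 0.25 µg/mL doxycycline (Dox) for 2 days. All lines kept their own EHMT1 gene, and no Dox-treated line without an EHMT1 insert was among the samples used here, so the drug and the induced protein cannot be told apart. Each stable condition had 2 count columns that agreed within counting noise (chi-square per degree of freedom of 0.995 to 1.02), and these were summed and counted as 1 library, which left 8 stable-line libraries.

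Assigned counts were 5593400 to 12438006 in the 4 siRNA samples and 8436791 to 12407739 in the summed stable-line libraries. In 1 siNTC library, replicate 2, a pair of rRNA-like pseudogenes took 10.0% of all counts, against at most 1.01% elsewhere. EHMT1 itself was at 87.5 and 83.4 CPM (counts scaled to a common library size by TMM within a table) in siNTC and at 29.2 and 30.7 CPM in siEHMT1, and it went from 71.6 to 88.7 CPM with Veh to 661 to 840 CPM with Dox. All 6 luminal prostate markers were present in every group, with summed levels of 4313 to 4559 CPM in the siRNA samples and 8913 to 9969 CPM in the stable lines. Basal markers summed to at most 1.52 CPM, with 2 of 4 at 0 throughout, neuroendocrine markers to at most 0.208 CPM, with 3 of 4 at 0, and immune markers to at most 0.521 CPM, with 1 of 4 at 0.

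As background, lncRNAs are transcribed and processed much like messenger RNAs but are not known to be translated into large proteins, and many act near their own gene or through bound proteins. PCA3 RNA is measured in urine as a marker of prostate cancer, and it has been described to pair with the PRUNE2 pre-mRNA. PCGEM1 and PART1 are androgen-responsive transcripts, and PCAT1 lies in the gene-poor region that also holds the MYC gene.

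The sequence around each annotated start is shown because the 3 lncRNAs printed here and PRUNE2 differ in base composition and share no searched motif. Each runs from 250 bases before to 50 bases after a RefSeq start on GRCh38.p14, 5′ to 3′ on the gene's strand, in lower case, and capitals mark a match to the half-site of the androgen receptor (AGAACA, or TGTTCT on the other strand). PCGEM1 is at chr2:192749595-192749894 (+), PART1 at chr5:60487682-60487981 (+), PCA3 at chr9:76764186-76764485 (+) and PRUNE2 at chr9:76906065-76906364 (-).
PCGEM1: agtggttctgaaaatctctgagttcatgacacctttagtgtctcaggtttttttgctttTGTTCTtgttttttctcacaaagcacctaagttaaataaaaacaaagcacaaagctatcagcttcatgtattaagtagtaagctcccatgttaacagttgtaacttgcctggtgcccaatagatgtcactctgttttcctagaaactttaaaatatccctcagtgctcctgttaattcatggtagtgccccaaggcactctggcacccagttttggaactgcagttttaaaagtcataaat
PART1: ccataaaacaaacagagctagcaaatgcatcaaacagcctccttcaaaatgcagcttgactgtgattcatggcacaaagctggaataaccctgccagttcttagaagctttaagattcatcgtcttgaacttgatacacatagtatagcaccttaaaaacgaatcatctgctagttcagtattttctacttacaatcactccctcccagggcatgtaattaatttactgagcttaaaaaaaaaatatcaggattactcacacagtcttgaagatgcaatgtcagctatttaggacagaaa
PCA3: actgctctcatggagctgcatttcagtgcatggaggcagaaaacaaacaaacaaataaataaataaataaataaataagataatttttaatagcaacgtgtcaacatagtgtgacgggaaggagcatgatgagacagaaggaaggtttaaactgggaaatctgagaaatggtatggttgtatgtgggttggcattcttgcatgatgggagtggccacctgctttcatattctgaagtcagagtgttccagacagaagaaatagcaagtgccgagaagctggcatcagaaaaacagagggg
PRUNE2: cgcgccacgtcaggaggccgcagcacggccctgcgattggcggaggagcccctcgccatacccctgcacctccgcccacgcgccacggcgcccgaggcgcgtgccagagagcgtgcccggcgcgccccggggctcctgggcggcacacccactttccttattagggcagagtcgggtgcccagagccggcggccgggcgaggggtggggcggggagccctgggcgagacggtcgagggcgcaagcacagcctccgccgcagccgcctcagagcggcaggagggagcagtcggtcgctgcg

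The 3 lncRNA start regions were poor in G and C, at 38.0% for PCGEM1, 37.3% for PART1 and 40.7% for PCA3, against a median of 58.3% over 27303 RefSeq promoters of the same length. Only 8.46%, 7.38% and 12.8% of promoters, respectively, were lower. The PRUNE2 region was at 76.3%, higher than 92.9% of promoters. A half-site was found in the PCGEM1 region alone, beginning at position -191 from the start on the other strand, and 14.9% of all promoters held one on either strand. None of the 4 regions held a TATA box (TATAAA, 12% of promoters), a FOXA site (TGTTTAC, 3.41%) or an E-box (CACGTG, 7.44%), each searched on both strands.

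On GRCh37, the build of the counts, and by GENCODE v44, PCA3 (ENSG00000225937) spans chr9:79306896-79478223 on the plus strand and PRUNE2 (ENSG00000106772) spans chr9:79226292-79521030 on the minus strand. Measured from the PRUNE2 start, PCA3 takes up the stretch from 42.8 to 214 kb of the 295 kb PRUNE2 body. The RefSeq start around which the PCA3 sequence is printed lies inside this stretch, not at the 214 kb end where PCA3 begins. The base composition and motif results of PCA3 therefore describe that RefSeq start alone. Of the 14176 exonic bases of PCA3, 1060 (7.48%) overlap PRUNE2 exons. The share is larger for the canonical PCA3 transcript, where 736 of 2374 bases overlap exons of the canonical PRUNE2 transcript. The libraries were made with a stranded total RNA kit, but whether reads were counted by strand is not given in the sources used here, so reads in the shared exon bases cannot be assigned to PCA3 or PRUNE2 with certainty. PCGEM1 (ENSG00000227418) is at chr2:193614571-193641625 (+), PCAT1 (ENSG00000253438) at chr8:127568568-128431295 (+) and PART1 (ENSG00000152931) at chr5:59783540-59844640 (+). PCAT1 exons overlap POU5F1B exons by 848 bases on the same strand and FAM84B exons by 1409 bases on the opposite strand, and PART1 exons overlap PDE4D exons by 227 bases on the opposite strand.

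**Figure D1:**
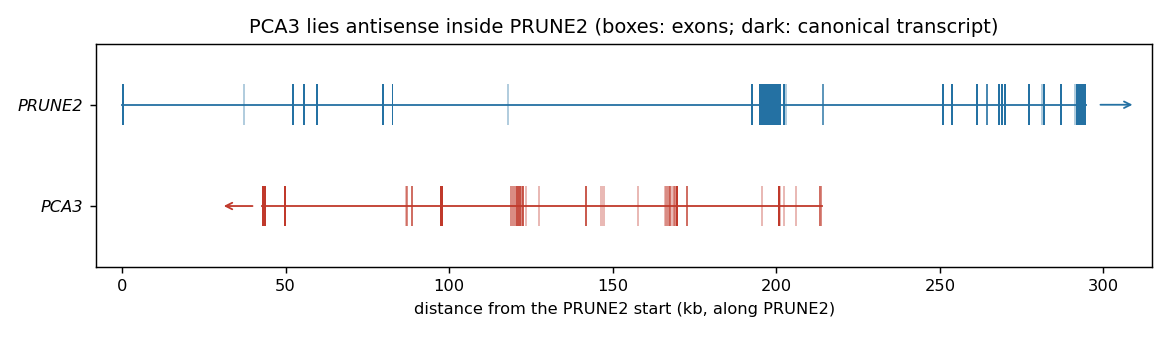
The exons of PRUNE2 and PCA3, drawn to scale by distance from the PRUNE2 start in kb. PCA3 lies wholly within the PRUNE2 body, from 42.8 to 214 kb, and runs the opposite way.

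The first comparison asked whether loss of EHMT1 changed the members. PCAT1 was at 107 and 101 CPM in siNTC (1140 and 513 counts) and at 136 and 127 CPM in siEHMT1 (1307 and 1597 counts). Both siEHMT1 samples were above both siNTC samples. The share of all genes that separate in this way, as PART1 and PCA3 also do below, was not counted. The means were 104.3 ± 4.42 CPM and 131.6 ± 6.32 CPM (SD, n = 2 each), a 1.26-fold difference. The log2 difference of 0.34 (SE 0.093, 95% interval 0.14 to 0.53) had an adjusted p of 0.190 in edgeR's quasi-likelihood test over 14532 genes, so PCAT1 was not called. At an unadjusted p under 0.05 PCAT1 was the 1 of 4 tested members to pass, and 9.58% of all genes tested passed in the same way.

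PART1 was at 8.76 and 8.68 CPM in siNTC and at 10.6 and 10.4 CPM in siEHMT1. The groups did not overlap here either, but the samples held only 44 to 130 counts of PART1. The log2 difference was 0.26 (SE 0.21, 95% interval -0.16 to 0.69, adjusted p = 0.715 in edgeR). PCGEM1 was at 1.6 and 1.97 CPM in siNTC and at 1.35 and 2.95 CPM in siEHMT1. The siEHMT1 samples were the lowest and the highest of the 4, and the log2 difference of 0.34 (SE 0.45, 95% interval -0.60 to 1.28, adjusted p = 0.863 in edgeR) rested on 10 to 37 counts a sample. Without siEHMT1 replicate 2 it was -0.36.

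PRUNE2, which encodes a large protein with a BCH domain, had the most counts of the members in every library. It was at 1014 and 898 CPM in siNTC and at 701 and 931 CPM in siEHMT1. The groups overlapped, because siEHMT1 replicate 2 lay between the siNTC samples. The log2 difference was -0.23 (SE 0.12, 95% interval -0.47 to 0.013, adjusted p = 0.546 in edgeR), and it was -0.04 without siEHMT1 replicate 1 and -0.44 without siEHMT1 replicate 2.

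PCA3 was counted 1 and 0 times in siNTC and 9 and 17 times in siEHMT1, which is 0.0942, 0, 0.937 and 1.35 CPM. Both siEHMT1 samples were higher than both siNTC samples, but even there PCA3 stayed near 1 CPM and it did not pass the filter on low counts. Over the summed counts, 26 against 1, the ratio was 18.4 with an exact 95% interval of 3.02 to 754, which covers counting error only and compares these libraries, not the conditions. With no filter the edgeR adjusted p of PCA3 was 0.296, and 0.787 with a replicate block as well. It entered 3 of the fits with 1 sample left out, through the siEHMT1 libraries where it is high, at adjusted p of 0.0450 to 0.638. The lowest, without siEHMT1 replicate 1, had 1 library in the siEHMT1 arm, which is assumed to vary like the siNTC samples, and it is not counted as a call. PCA3 made up 0.133% (Wilson 95% interval 0.0702 to 0.253%) and 0.145% (0.0907 to 0.232%) of the counts of PCA3 and PRUNE2 together in siEHMT1. In siNTC the share was 0.0093% (0.0016 to 0.0526%) in replicate 1 and 0 of 4555 counts in replicate 2 (0 to 0.0843%), so that the interval of siNTC replicate 2 overlapped that of siEHMT1 replicate 1.

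**Figure D2:**
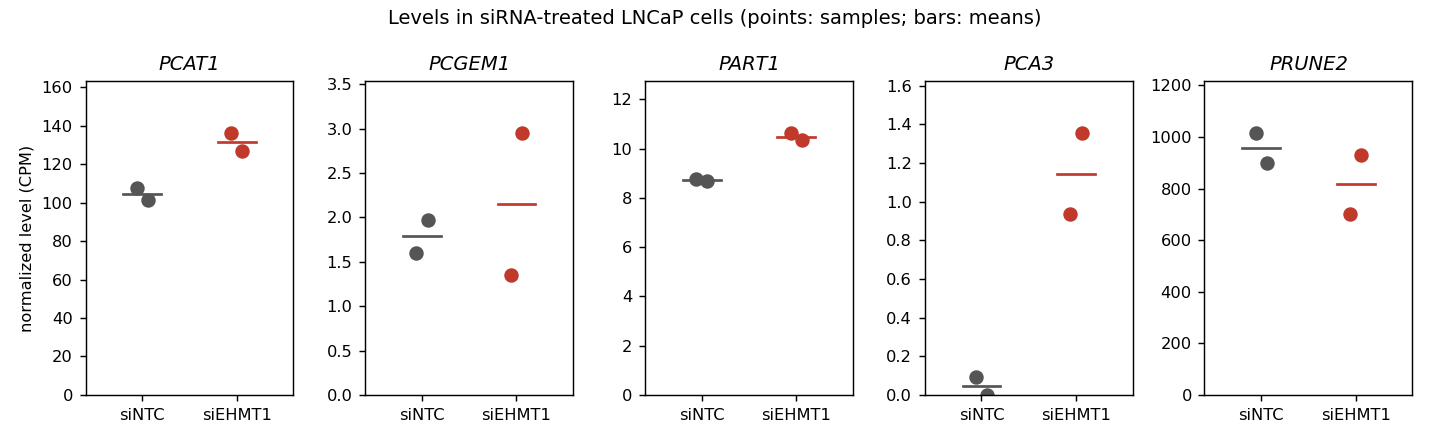
Normalized level in CPM of each member in the 2 siNTC and 2 siEHMT1 samples, 1 point per sample with each panel's own axis. The siEHMT1 points lie above both siNTC points for PCAT1, PART1 and PCA3, and the groups overlap for PCGEM1 and PRUNE2. The share of all genes that separate in this way was not counted.

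Of the 5 members, 4 passed the filter and 0 were called by edgeR or limma-voom, where edgeR called 19 of 14532 genes (0.131%). DESeq2 gave no adjusted p for PCGEM1 and called 0 of the other 3. A 2 against 2 design cannot reach an exact permutation p under 0.333 for a single gene. The other prostate-cancer lncRNAs, from a list of 30 of which 25 were found, also had 0 called of 14 tested. So did the genes described as partners of these RNAs (0 of 10), the androgen-response genes (0 of 24) and the protein-coding neighbours within 1 Mb of a member (0 of 16).

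The second comparison asked whether induced EHMT1 changed the members in the stable lines. PCAT1 was at 23.8, 17.5, 17.1 and 14.1 CPM with Veh and at 22.7, 16.3, 20.0 and 15.4 CPM with Dox in the WT, K450R, K451R and K450RK451R lines, respectively. Dox was lower than Veh in 2 lines and higher in 2. The means were 18.1 ± 4.10 and 18.6 ± 3.4 CPM (SD, n = 4 lines each). The log2 difference across the lines was 0.044 (SE 0.115, 95% interval -0.19 to 0.28, adjusted p = 0.910 in edgeR), and it was -0.016 without the K451R line.

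PART1 was at 3.03, 2.58, 4.85 and 3.54 CPM with Veh and at 3.71, 4.04, 3.73 and 4.71 CPM with Dox, in the same order of lines. It was higher with Dox in 3 of 4 lines and lower in K451R, and the groups overlapped. The log2 difference was 0.21 (SE 0.248, 95% interval -0.30 to 0.72, adjusted p = 0.758 in edgeR), and it was 0.11 without the K450R line, 0.12 without K450RK451R and 0.43 without K451R. PRUNE2 was at 833, 795, 755 and 831 CPM with Veh and at 898, 762, 674 and 800 CPM with Dox. It was higher with Dox in the WT line and lower in the 3 mutant lines. Across the lines the log2 difference was -0.042 (SE 0.053, 95% interval -0.15 to 0.067, adjusted p = 0.781 in edgeR).

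Within a line the Dox over Veh ratio of PRUNE2 was 1.08 (95% counting interval 1.05 to 1.11) in WT, 0.959 (0.928 to 0.992) in K450R, 0.894 (0.865 to 0.924) in K451R and 0.963 (0.935 to 0.991) in K450RK451R. The WT interval lay above 1 and those of the 3 mutant lines lay below 1. PRUNE2 held 6222 to 10356 counts a library, so its intervals were narrow. The share of all genes whose intervals leave out 1 was not counted. With 1 library on each side these intervals cover counting error only, not error in the scaling. Under upper-quartile scaling the PRUNE2 log2 difference across the lines went from -0.042 to -0.027. Whether the lines differed in their response was not tested. For PCAT1 the ratios were 0.953 (0.792 to 1.15), 0.932 (0.737 to 1.18), 1.17 (0.946 to 1.45) and 1.09 (0.876 to 1.37). For PART1 they were 1.22 (0.740 to 2.02), 1.57 (0.895 to 2.81), 0.770 (0.493 to 1.21) and 1.33 (0.864 to 2.08). Every interval of PCAT1 and PART1 held 1, on only 21 to 283 counts a library.

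**Figure D3:**
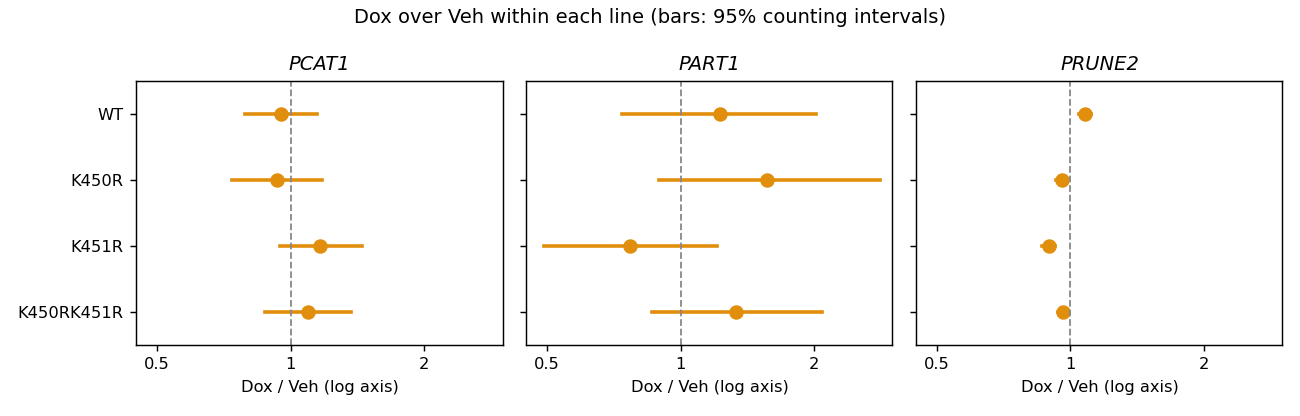
Ratio of the Dox to the Veh level within each stable line on a log axis, for PCAT1, PART1 and PRUNE2, with bars for the 95% counting interval. The PCAT1 and PART1 bars all cross 1, and those of PRUNE2 lie above 1 in WT and below 1 in K450R, K451R and K450RK451R. Bars cover counting error only and are narrow for PRUNE2, which had the most counts. The share of all genes whose bars leave out 1 was not counted.

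PCGEM1 was counted 0, 0, 3 and 5 times with Veh and 3, 1, 1 and 2 times with Dox in the WT, K450R, K451R and K450RK451R lines, and PCA3 once, in K450R with Veh. Neither passed the filter in the stable lines. The summed PCGEM1 counts of 7 with Dox and 8 with Veh gave a ratio of 0.766 with an exact 95% interval of 0.237 to 2.42, so no difference was detectable at this depth. PCA3 was 1 of the 64593 counts of PCA3 and PRUNE2 together in the 8 libraries (0.0015%).

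Of the 5 members, 3 passed the filter and 0 were called with Dox, where 296 of 14105 genes (2.10%) were called, 85 higher and 211 lower. Under upper-quartile scaling that split was 116 higher and 182 lower, and in DESeq2 it was 23 and 114. Limma-voom also called 0 members, DESeq2 called neither PRUNE2 nor PCAT1 and gave no adjusted p for PART1, and 0 members were under an unadjusted p of 0.05 in edgeR. The other prostate-cancer lncRNAs had 0 called of 14. Among the androgen-response genes 7 of 24 were called, all higher with Dox. They included PMEPA1, a transmembrane protein of androgen and TGF-beta signalling, at a log2 difference of 0.66 (edgeR adjusted p = 0.000107), PPAP2A at 0.32, TMPRSS2, a surface protease, at 0.22 and MAF, a transcription factor, at 0.52. Of 15 neighbours tested, 2 were called, and both are neighbours of PCAT1, with MYC outside its body and FAM84B overlapping it. MYC, a transcription factor that drives growth, rose by 0.46 on the log2 scale (edgeR adjusted p = 3.68e-05) and FAM84B rose by 0.31 (adjusted p = 0.0238). Among the partner genes 2 of 10 were called, MYC and HNRNPA1, an RNA-binding splicing factor, which fell by 0.37 (edgeR adjusted p = 0.0187).

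The third comparison asked whether the lines differed from each other in the members. PCAT1 had the largest span of the 3 members tested. The mean of its Veh and Dox levels was 23.3 CPM in WT, 18.5 CPM in K451R, 16.9 CPM in K450R and 14.7 CPM in K450RK451R, a 1.58-fold span. The WT libraries (22.7 to 23.8 CPM) lay above all others, K451R (17.1 to 20.0 CPM) and K450R (16.3 to 17.5 CPM) overlapped, and K450RK451R (14.1 to 15.4 CPM) lay below all others. The span of the fitted line effects was 0.66 on the log2 scale with an adjusted p of 0.0589 in edgeR, so PCAT1 was not called. In this test the Veh and Dox libraries of a line stood as its 2 libraries. The p-values among lines therefore set the lines against the spread within a line, not between separate infections or cultures. The adjusted p was 0.0435 with no filter, 0.0362 without the K451R line, 0.0496 without K450R, 0.541 without WT and 0.206 without K450RK451R. Each line is a separate lentiviral line, so the insert and the line cannot be told apart.

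PRUNE2 averaged 865 CPM in WT, 815 CPM in K450RK451R, 779 CPM in K450R and 714 CPM in K451R, a 1.21-fold span. The WT libraries (833 to 898 CPM) lay just above those of K450RK451R (800 to 831 CPM), which lay just above those of K450R (762 to 795 CPM), and K451R (674 to 755 CPM) was lowest. The span was 0.28 on the log2 scale with an adjusted p of 0.127 in edgeR, and the adjusted p was 0.0195 with no filter and 0.619 without the K451R line. PART1 averaged 3.31 to 4.29 CPM over the lines, which overlapped, and its span of 0.31 had an adjusted p of 0.866 in edgeR. DESeq2 did not call PRUNE2 and gave no adjusted p for PCAT1 or PART1. Of the 3 tested members 0 were called by edgeR or limma-voom, where edgeR called 430 of 14105 genes (3.05%), and 2 of 3 were under an unadjusted p of 0.05, where 15.2% of all genes were.

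Of the other prostate-cancer lncRNAs, 1 of 14 was called among the lines. This was DANCR, a host transcript of small nucleolar RNAs, with a span of 0.48 (edgeR adjusted p = 0.00704). MYC was the 1 of 15 neighbours called, with a span of 0.53 (edgeR adjusted p = 0.000161). Among the androgen-response genes 7 of 24 were called, among them PPAP2A (span 0.74), MAF (1.3), FKBP5 (0.45) and SLC45A3 (0.36), and among the partners 2 of 10, MYC and HNRNPA1.

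Over the 8 stable-line libraries, log2 CPM of PCAT1 and PRUNE2 had a Pearson r of 0.18, PRUNE2 and PART1 of -0.23 and PCAT1 and PART1 of -0.34. Among 10866 genes, those with a pattern near that of PCAT1 included USE1 (r = 0.949) and C9orf89 (0.949). The nearest to PRUNE2 were CARD14 (0.967), NECAB3 (0.959) and COG1 (0.949), and the nearest to PART1 were ALG14 (0.986), VMA21 (0.942) and WDR12 (0.935). These values are descriptions over 8 libraries that share 4 lines, and the highest 1% of genes began at 0.796 for PCAT1, 0.835 for PRUNE2 and 0.803 for PART1.

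Set side by side, PCAT1, PCGEM1 and PART1 were lower in the vehicle-treated stable lines than in siNTC. After 1 scaling over all 12 libraries, PCAT1 was at 95.7 and 102.4 CPM in siNTC and between 14.4 and 24.5 CPM in the 4 Veh libraries. PCGEM1 was at 1.53 and 1.87 CPM in siNTC and between 0 and 0.519 CPM with Veh, where 2 of 4 libraries held none. Its mean was 7.61-fold lower with Veh, and 13.7-fold lower without the K450RK451R line, which held 5 of the 8 counts. PART1 was at 8.21 and 8.36 CPM in siNTC and between 2.66 and 4.97 CPM with Veh. For these 3 lncRNAs every Veh library was below both siNTC samples, and the share of all genes that separate likewise between the tables was not counted. The log2 ratio of mean Veh to mean siNTC level, with 0.5 CPM added to each, was -2.38 for PCAT1, -1.60 for PCGEM1 and -1.10 for PART1, and of all genes 0.469%, 2.85% and 8.64% had a lower ratio.

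PRUNE2 was at 850 and 967 CPM in siNTC and between 773 and 857 CPM with Veh, where the groups overlapped, and its log2 ratio was -0.14 with 42% of genes lower. PCA3 had 1 count in siNTC and 1 with Veh. Of the 4 members that passed the filter over these libraries 3 were over 2-fold lower with Veh, against 1613 of 15576 genes (10.4%), 10.2% of protein-coding genes and 15.4% of 1233 lncRNAs. PCGEM1, among these 3, did not pass the filter in the stable lines alone. It entered through the siRNA samples where it is high, so the filter itself favours finding it lower with Veh. Over all genes the median log2 ratio was 0.013. The tables came from separate experiments. The siNTC cells were transfected with siRNA, and the stable lines were infected, selected and, by the paper's methods, kept in tetracycline-free serum. The experiment, the handling and the cells therefore cannot be told apart, and no test was made. In bulk RNA, fewer cells expressing a gene and less RNA per cell cannot be told apart either.

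**Figure D4:**
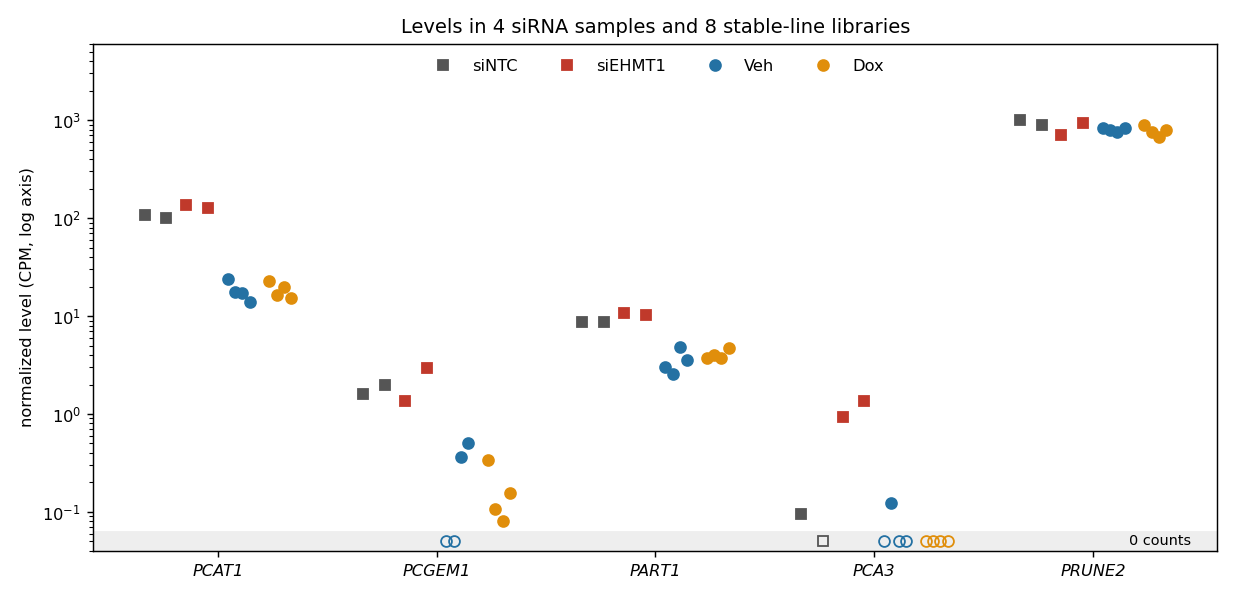
Level in CPM (log axis) of each member in the 4 siRNA samples and the 8 stable-line libraries, scaled within each table, with open symbols in the grey band for 0 counts. PCAT1, PCGEM1 and PART1 are lower in every stable-line library than in every siRNA sample, and PRUNE2 is at a similar level throughout. The share of all genes that separate likewise was not counted.

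**Figure D5:**
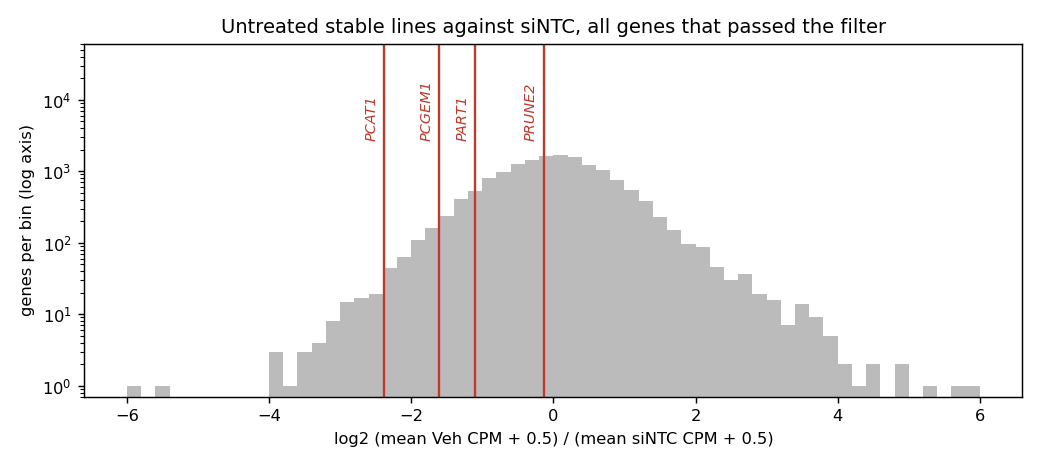
Distribution over 15576 genes of the log2 ratio of the mean Veh level to the mean siNTC level, with genes per bin on a log axis and red lines at the members. PCAT1, at -2.38, lies in the lower tail and PRUNE2, at -0.14, near the middle.

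The same ratio did not run one way over the other lncRNAs of the list. Of 17 that passed the filter, 2 were over 2-fold lower and 2 over 2-fold higher with Veh, and the median log2 ratio was 0.38. Those named next, and the neighbours, were chosen after their values were seen. The lower ones were ARLNC1, an androgen-regulated lncRNA, at 16 CPM in siNTC and 1.5 CPM with Veh, and POTEF-AS1 at 1.51 and 0.115 CPM. The higher ones were PCAT6, at 1.6 and 8.07 CPM, and H19, an imprinted lncRNA, at 0.225 and 1.27 CPM. POTEF-AS1 did not pass the filter in the stable lines alone, nor H19 in the siRNA samples alone. Each entered through the samples where it is high, so the filter itself favours finding them apart. The most abundant were DANCR, GAS5 and PVT1, at 139.5, 97.4 and 25.9 CPM in siNTC and at 81.5, 160.4 and 34.6 CPM with Veh. Of the 24 androgen-response genes, 6 were over 2-fold lower and 6 over 2-fold higher, with a median of -0.39. Of 16 neighbours, TMEFF2, a transmembrane protein near PCGEM1, was at 198 CPM in siNTC and 56.6 CPM with Veh, MYC was at 367 and 127 CPM, and POU5F1B, which shares exon bases with PCAT1, was higher with Veh at 1.01 and 7.30 CPM. The summed luminal markers also differed between the tables, with the ranges given above, and the sum of 5 stromal markers was 16.2 to 17.8 CPM in the siRNA samples and 31.2 to 41.3 CPM in the stable lines. Of 3 endothelial markers 2 were matched, CDH5 was at 0 throughout, and the sum was VWF alone. It was 7.69 to 15.9 CPM in the siRNA samples and 3.34 to 7.24 CPM in the stable lines. These marker sums were scaled within each table, and the siRNA range includes siEHMT1, where VWF was 0.88 higher on the log2 scale. After the 1 scaling over 12 libraries the VWF log2 ratio of Veh to siNTC was -0.72, lower but not over 2-fold. The part of these markers in the lncRNA levels was not tested.

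Levels can be set between members only per length, and the gene model then decides part of the order. The lengths are those of GENCODE v44, and the annotation used for the counts is not given. Some exons in these lengths may therefore not have been counted, and the order is a description under this gene model only. In siNTC, by the length of the canonical transcript, PCAT1 stood at 115.1 CPM per kb, PRUNE2 at 75.8, PART1 at 2.69, PCGEM1 at 1.12 and PCA3 at 0.0198. By the length of all exons together, PRUNE2 came first at 65.1 CPM per kb, followed by PCAT1 at 5.64, PCGEM1 at 1.04, PART1 at 0.687 and PCA3 at 0.0033. PCA3 was lowest by both lengths. In the Veh libraries PRUNE2 was above PCAT1 by both, at 63.7 and 20.0 CPM per kb of the canonical transcript and 54.7 and 0.980 CPM per kb of all exons.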

How the data were processed

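RNA-seq of LNCaP cells was analysed from whole-number counts per gene that the authors deposited, unnormalized, in one table for the siRNA samples and one for the stable lines. Per the submitters' processing notes the tools were FastQC 0.11.9, STAR 2.7.2 and featureCounts 1.6.4 on hg19 (GRCh37). The kit was stranded. The annotation release and the strand setting of the counting are not given in the sources used here. Gene bodies came from GENCODE v44 on GRCh37 (55538 of 57773 gene identifiers matched), and promoters from RefSeq on GRCh38.p14. The 5 members, the lists and the tests were chosen with earlier results of these data known. Named genes were all members, EHMT1, list genes and neighbours that were called (at most 5 a list, by smallest p), the 3 most abundant listed lncRNAs and the 3 genes most alike in pattern to each member over the stable-line libraries. Listed genes over 2-fold apart between the tables were named after their values were seen. Some genes that these rules pick are not reported here.

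Counts were fitted with edgeR 4.0.16 (R 4.3.3; quasi-likelihood, TMM, default filter on low counts), and p-values were adjusted by Benjamini-Hochberg over all genes tested, with a gene called at an adjusted p under 0.05. The siRNA fit had the 4 siRNA samples, and the stable-line fit had line and treatment as terms over the 8 summed libraries. Alternatives used DESeq2 1.42.0 and limma 3.58.1 (voom), other scalings and filters, and each sample or line left out. Levels between tables used 1 TMM scaling over 12 libraries and a pseudocount of 0.5 CPM. Nothing says that samples came from separate cultures, so p-values measure the spread between these samples, which may be technical. Tested on simulated counts with changes of 1 on the log2 scale, the fits recovered 81.9% of 193 changed genes for siEHMT1 against siNTC, 94.9% of 196 for Dox against Veh and 85.9% of 198 among the lines. The simulation left out genes with low mean counts, gave every gene the same dispersion and tried no smaller changes. These rates therefore do not describe genes with few counts, such as PCA3, or smaller differences. Intervals and floors (3 counts) cover counting error only.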

Additional observations from a re-analysis of the deposited data

How the results depend on the processing

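Across the alternatives the members of the siRNA and Dox comparisons stayed uncalled in every fit that tested PCAT1, PART1, PCGEM1 or PRUNE2. PCA3, which passed the filter only through siEHMT1 libraries, was under the threshold without siEHMT1 replicate 1 (edgeR adjusted p = 0.0450), a fit with 1 library in that arm. The direction turned for PCGEM1 with siEHMT1, at -0.36 without siEHMT1 replicate 2 (range over the samples left out -0.36 to 0.75), and for PCAT1 with Dox, at -0.016 without the K451R line (range -0.016 to 0.091). PART1 with Dox ran from 0.11 to 0.43 as lines were left out. PCA3 between the tables, at 1 count on each side, went from -0.15 to 0.087 as siNTC samples or lines were left out, alternatives added after seeing the data, in which PRUNE2 ran from -0.23 to -0.043. PCAT1 stayed between -2.54 and -2.28 there, PCGEM1 between -1.81 and -1.47 (5.71-fold to 13.7-fold by the ratio of means) and PART1 between -1.28 and -0.996. Among the lines PCAT1 and PRUNE2 crossed the threshold under some settings, and the cause was not tested.

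The 19 genes called with siEHMT1 became 12 with no filter and 38 to 111 with 1 sample left out. Replicate numbers did not pair the samples (correlation of deviations -0.002), and a replicate block gave 127 calls, or 2 with no filter as well, an alternative added after seeing the data. PCAT1 then had an adjusted p of 0.0525 and 0.787 in edgeR. The 296 Dox calls became 137 in DESeq2 and 114 to 501 with a line left out, and the 430 calls among the lines became 246 in DESeq2 and 253 to 421. Treating the 16 columns as replicates gave 2000 and 3447 calls, and with the replicate block 1900 and 3170, since columns of 1 condition differ only by counting noise. PCAT1 among the lines then had an adjusted p of 0.000125, or 0.000229 with the block, and PRUNE2 of 6.60e-05 and 0.000163 in edgeR. Depth limits PCA3 and PCGEM1, with at most 17 and 37 counts in a library.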
